A study of Homo sapiens with 24 samples.

Results

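Of the 58721 genes counted in the series, the 9 described here are genes of the oligodendrocyte lineage: SOX10, SOX8, OLIG1, OLIG2, NKX2-2, CSPG4, MAG, FABP7 and MYRF. They were chosen by symbol, each through the one Ensembl ID that carries it in GENCODE 29, and their levels were read in all 8 groups of the study. RNA-seq was done on 2 human cell lines in 24 libraries, 3 per group. LN-229 is an established glioblastoma line with a genotype labelled wild type, grown in DMEM with serum and antibiotics. Its 5 groups received an siRNA against the zinc finger activator ZFX (siZFX), an siRNA against the zinc finger protein ZNF593 (siZNF593), a control siRNA (siControl), both targeting siRNAs together (siZFX plus siZNF593, the double knockdown), or the control siRNA again in its own set of libraries (siControl_2). The treatment label is the same for siControl and siControl_2, and it is the naming of the data that ties siControl_2 to the double knockdown. The other line, 293T, comes from human embryonic kidney and is labelled as a knockout of ZFX and of its paralog ZNF711 (DKO). DKO cells received a FLAG-tagged ZFX construct named ZFX12_13, FLAG-tagged wild-type ZFX (wtZFX) or the empty vector pCMV6-Entry (pCMV6). The labels do not say what ZFX12_13 changes, whether DKO is 1 clone, or how long cells were treated, and the growth medium is given for LN-229 only.

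Oligodendrocytes wrap axons of the central nervous system in myelin. They arise from progenitors specified by the basic helix-loop-helix factor OLIG2 and its neighbour OLIG1, which carry the NG2 proteoglycan encoded by CSPG4 on their surface. SOX10 and its SoxE relative SOX8 act with the OLIG factors, NKX2-2 is a homeodomain repressor of progenitors at the start of differentiation, and MYRF is a membrane-bound factor that is cleaved and then activates myelin genes. MAG is a sialic acid-binding adhesion protein of the inner myelin membrane, and FABP7 is the brain fatty acid-binding protein of radial glia and progenitors. Several of these genes are also active in glioma cells, and SOX10 also marks Schwann cells and melanocytes.

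Libraries held 16774179 to 30159260 gene counts in LN-229 and 16223239 to 24272308 in DKO cells, and 17684 and 19376 genes had enough counts to be tested. Within groups, log-scale profiles correlated at 0.985 to 0.998 (Pearson, across genes), with replicate 3 of the double knockdown the library farthest from its group. ZFX averaged 16.0 ± 3.5 CPM in siZFX and 50.5 ± 4.7 CPM in siControl cells (SD, n = 3 each), where CPM is read counts relative to the TMM-scaled library total. In the double knockdown ZFX averaged 26.7 ± 2.3 CPM, against 53.6 ± 4.1 CPM in siControl_2, so less ZFX was lost there than with siZFX alone (difference in log2 change 0.65, adjusted p 0.0112). ZNF593 overlaps a gene on the other strand and had no reads in the unstranded counts. Summed over both stranded counts and given per unscaled total, it averaged 2.34 ± 0.69 CPM in siZNF593, against 34.0 ± 2.6 in siControl, and 3.21 ± 0.48 in the double knockdown, against 34.9 ± 3.2 in siControl_2. Reads fell about evenly on the stranded counts in every library (50.1% to 50.7% on the first), so such sums can hold reads of an overlapping gene. ZFX reads in DKO cells include those of the construct, with 18895 ± 3282 CPM for ZFX12_13, 15534 ± 1235 for wtZFX and 224 ± 10 for pCMV6, and the knocked-out genes still gave reads in pCMV6 cells.

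LN-229 cells carried all 9 genes, from very high to near background. As transcripts per total after dividing by exon length (TPM), SOX10 led in siControl at 1300.5 ± 35.5 TPM, with only 60 protein-coding genes above it. CSPG4 followed at 137 ± 4.1 TPM, FABP7 at 85.8 ± 5.0, SOX8 at 41.6 ± 2.7, MAG at 24.9 ± 1.1, OLIG2 at 23.6 ± 1.5, NKX2-2 at 13.3 ± 1.3, MYRF at 4.54 ± 0.63 and OLIG1 at 2.61 ± 0.91 (SD, n = 3). Of the neighbours in this order, only MAG and OLIG2 had overlapping libraries. The unstranded counts of NKX2-2 held only 32.6% of its summed stranded counts in LN-229 and 40.1% in DKO cells. These sums take every read in an exon shared with a gene on the other strand, whichever gene it came from. The place of NKX2-2 in the order of either line may thus be too low, by an amount that cannot be told. DKO cells with pCMV6 had another order. OLIG2 led there at 16.2 ± 0.8 TPM, MYRF followed at 12.4 ± 0.6 and SOX8 at 10.0 ± 1.0, each apart from the next. Then came CSPG4 at 6.47 ± 0.29, NKX2-2 at 5.78 ± 1.55 and OLIG1 at 5.33 ± 0.94. The NKX2-2 libraries overlapped those of CSPG4 and of OLIG1, which lay apart from each other. SOX10 stood at 0.951 ± 0.076 and MAG at 0.296 ± 0.091, and FABP7 had no read in any pCMV6 library. The 2 lines were not tested against each other, since line and experiment cannot be told apart.

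**Figure D1:**
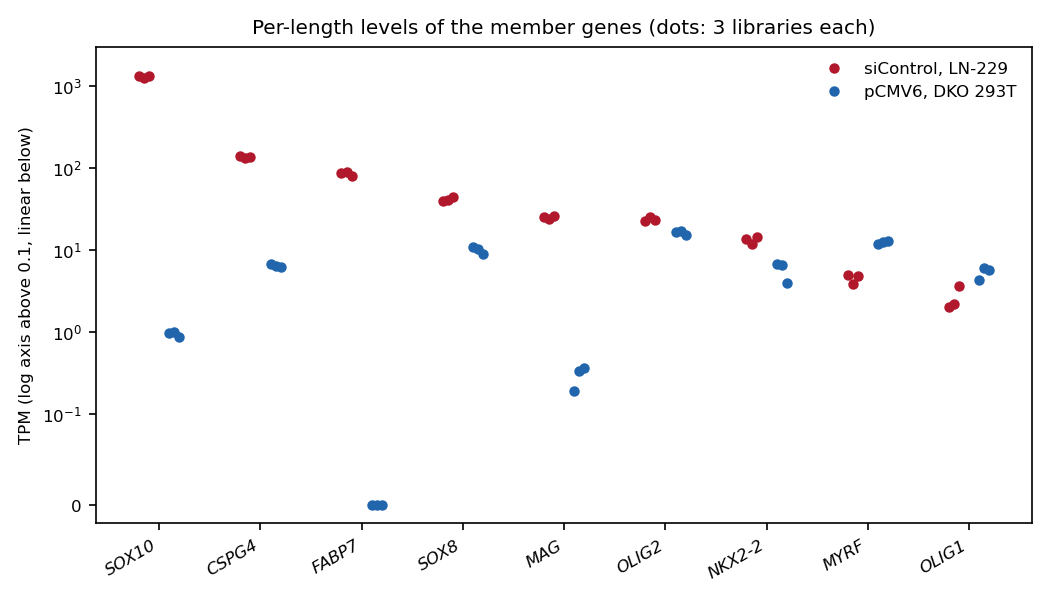
Level per exon length (TPM, log axis above 0.1 and linear below) of each gene in siControl LN-229 libraries and in pCMV6 DKO 293T libraries, 1 dot per library. SOX10 lies near 1300 TPM in LN-229 and near 1 TPM in DKO cells, while OLIG2, NKX2-2, MYRF and OLIG1 lie closer together in both.

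The name of the lineage was checked against other markers in LN-229. Markers set for Schwann cells or melanocytes were present, with S100B at 362 ± 17 CPM, ERBB3 at 528 ± 22 and PMP22 at 259 ± 17 CPM in siControl. Of these 10 markers 8 averaged at least 1 CPM in siControl. TYR, which defines melanin-making cells, had no read in siControl or siZFX. Glioblastoma line markers were high, with NES at 1085 ± 20 CPM and VIM at 1238 ± 22, but CHI3L1 was at 0. The astrocyte gene GFAP was at 2.62 ± 0.63 CPM. Of 7 astrocyte markers 4 averaged at least 1 CPM in siControl, with sums of 40.7 to 42.5 CPM. Among 7 neuron markers 3 did so, with sums of 79.5 to 84.0 CPM, and among 7 pericyte markers 4, with sums of 22.2 to 25.4. Epithelial markers did so in 2 of 5, with sums of 70.9 to 76.0 CPM, and no microglia or endothelial marker did.

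The genes lie on 8 chromosomes of GRCh38, on which the counts are based. OLIG2 (chr21:33025845-33029196) and OLIG1 (chr21:33070144-33072420) are neighbours on the plus strand, 40947 bases apart. Since the unstranded counts leave out reads that meet exons of more than 1 gene, overlaps lower some levels. NKX2-2 (chr20:21511010-21514026, minus strand) shares 638 of its 2092 exonic bases with the antisense gene NKX2-2-AS1, and kept only 32.6% of its summed stranded counts in LN-229. Here and for the genes below, these sums can hold reads of the overlapping gene. CSPG4 (chr15:75674322-75712848, minus strand) kept 80.2%, next to an antisense gene over 563 exonic bases, and has pseudogene copies whose reads cannot be fully told apart from its own. SOX10 (chr22:37970686-37987422, minus strand) kept 97.2% in LN-229 and 64.9% in DKO cells beside POLR2F. MYRF (chr11:61752642-61788518, plus strand) kept 92.9% beside TMEM258, and OLIG1 kept 81.3%. SOX8 (chr16:981808-986979), MAG (chr19:35292125-35313804) and FABP7 (chr6:122779475-122784074), all on the plus strand, overlap no annotated gene.

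Upstream sequence is shown for CSPG4 and MAG because, among the genes with an entry in the sequence table, these fell when ZFX was lowered in LN-229 and rose when it was supplied to DKO cells. Both are the 250 bases before the RefSeq start on GRCh38.p14, read 5′ to 3′ on the gene's strand, with the letters GGCCT in capitals.
CSPG4: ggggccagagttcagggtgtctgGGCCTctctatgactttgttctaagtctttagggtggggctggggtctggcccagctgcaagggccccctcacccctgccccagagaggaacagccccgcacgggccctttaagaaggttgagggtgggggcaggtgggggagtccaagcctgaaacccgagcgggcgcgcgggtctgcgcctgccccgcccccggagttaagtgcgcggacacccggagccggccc
MAG: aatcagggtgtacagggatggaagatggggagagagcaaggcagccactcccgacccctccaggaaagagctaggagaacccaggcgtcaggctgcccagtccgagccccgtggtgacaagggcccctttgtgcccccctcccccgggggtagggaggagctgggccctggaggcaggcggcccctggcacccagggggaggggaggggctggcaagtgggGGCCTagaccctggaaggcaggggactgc
These windows are chr15:75712849-75713098 on the minus strand for CSPG4 and chr19:35291911-35292160 on the plus strand for MAG. AGGCCT, the core letters known for ZFX binding, was searched on both strands, as was GGCCT, and occurred in none of the 5 windows RefSeq gave for 4 members, CSPG4, FABP7, MAG and NKX2-2, the last with 2 starts. It occurs in 9.20% of 35116 promoter windows of this length. The shorter GGCCT, contained in AGGCCT, occurred once in 4 of the 5 windows, 227 bases before the start in CSPG4 and 29 in MAG, and occurs in 50.4% of all windows. CpG pairs numbered 14 in CSPG4, 6 in MAG and 5 in FABP7, 16 and 22 at the starts of NKX2-2, against a median of 11 over all windows.

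Lowering ZFX in LN-229 asked which genes depend on it. All 9 lineage genes were lower in siZFX than in siControl, and in each the siZFX libraries lay below every siControl library. The share of all genes with such separate libraries was not counted. Between siControl_2 and siControl the libraries were also separate in 7 of the 9. Among all 17684 genes, 17.1% were called lower and 13.8% higher (30.9% in all) at an adjusted p under 0.05 by edgeR's quasi-likelihood test with Benjamini-Hochberg adjustment, which gives every adjusted p below. The median log2 change was -1.32 over the 9 genes and 0.02 over all genes tested. The 9 were chosen with earlier results of these data known, so these values describe the set and do not test it. In bulk RNA, fewer cells expressing a gene and less RNA per cell cannot be told apart.

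Among the factors, SOX10 stood at 718, 648 and 683 CPM in siZFX, against 1293, 1259.7 and 1273 CPM in siControl. The drop left it at 53.6% of control (log2 change -0.90, SE 0.09, adjusted p 7.15e-08), and SOX10 was still the highest of the 9 genes per length at 660.2 ± 36.1 TPM. SOX8 had 30.7, 29.6 and 26.6 CPM in siZFX, against 46.8, 48.1 and 51.4 in siControl (log2 -0.75, SE 0.11, adjusted p 1.39e-05). OLIG2 had 10.7, 11.99 and 11.5 CPM in siZFX, against 20.0, 22.9 and 20.0 in siControl (log2 -0.88, SE 0.12, adjusted p 7.09e-06). These 3 factors kept 53.6% to 59.4% of their control level.

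The other factors fell further. NKX2-2 gave 32, 25 and 26 reads in siZFX, or 1.42, 1.16 and 1.13 CPM, against 208, 194 and 180 reads, or 7.59, 6.67 and 7.76 CPM, in siControl (log2 -2.57, SE 0.39, adjusted p 9.94e-05). With both stranded counts summed, which adds the reads under NKX2-2-AS1 whichever gene they came from, and totals unscaled, NKX2-2 averaged 3.89 ± 0.50 CPM in siZFX and 22.5 ± 2.2 in siControl. OLIG1 rested on 7, 1 and 5 reads in siZFX, against 33, 39 and 50 in siControl, so its log2 change of -2.98 has a wide SE of 0.62 (adjusted p 0.000598). MYRF had 5.22, 5.23 and 4.94 CPM in siZFX, against 14.1, 11.001 and 13.4 in siControl (log2 -1.32, SE 0.15, adjusted p 5.87e-07).

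The surface and lipid-binding genes of progenitors fell as well. CSPG4 had 70.3, 73.2 and 72.5 CPM in siZFX, against 309, 297 and 296 in siControl, a 4.18-fold drop (log2 -2.06, SE 0.15, adjusted p 8.35e-08). FABP7 had 15.8, 14.95 and 14.6 CPM in siZFX, against 62.3, 66.6 and 57.0 in siControl, a 4.10-fold drop (log2 -2.03, SE 0.10, adjusted p 6.21e-13). MAG, the one myelin membrane protein of the set, changed least, with 13.3, 13.0 and 11.1 CPM in siZFX, against 19.6, 18.9 and 19.8 in siControl (log2 -0.64, SE 0.16, adjusted p 0.00379). All 9 falls kept their direction and their call under every alternative run for this comparison, among them leaving out each of its libraries in turn.

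**Figure D2:**
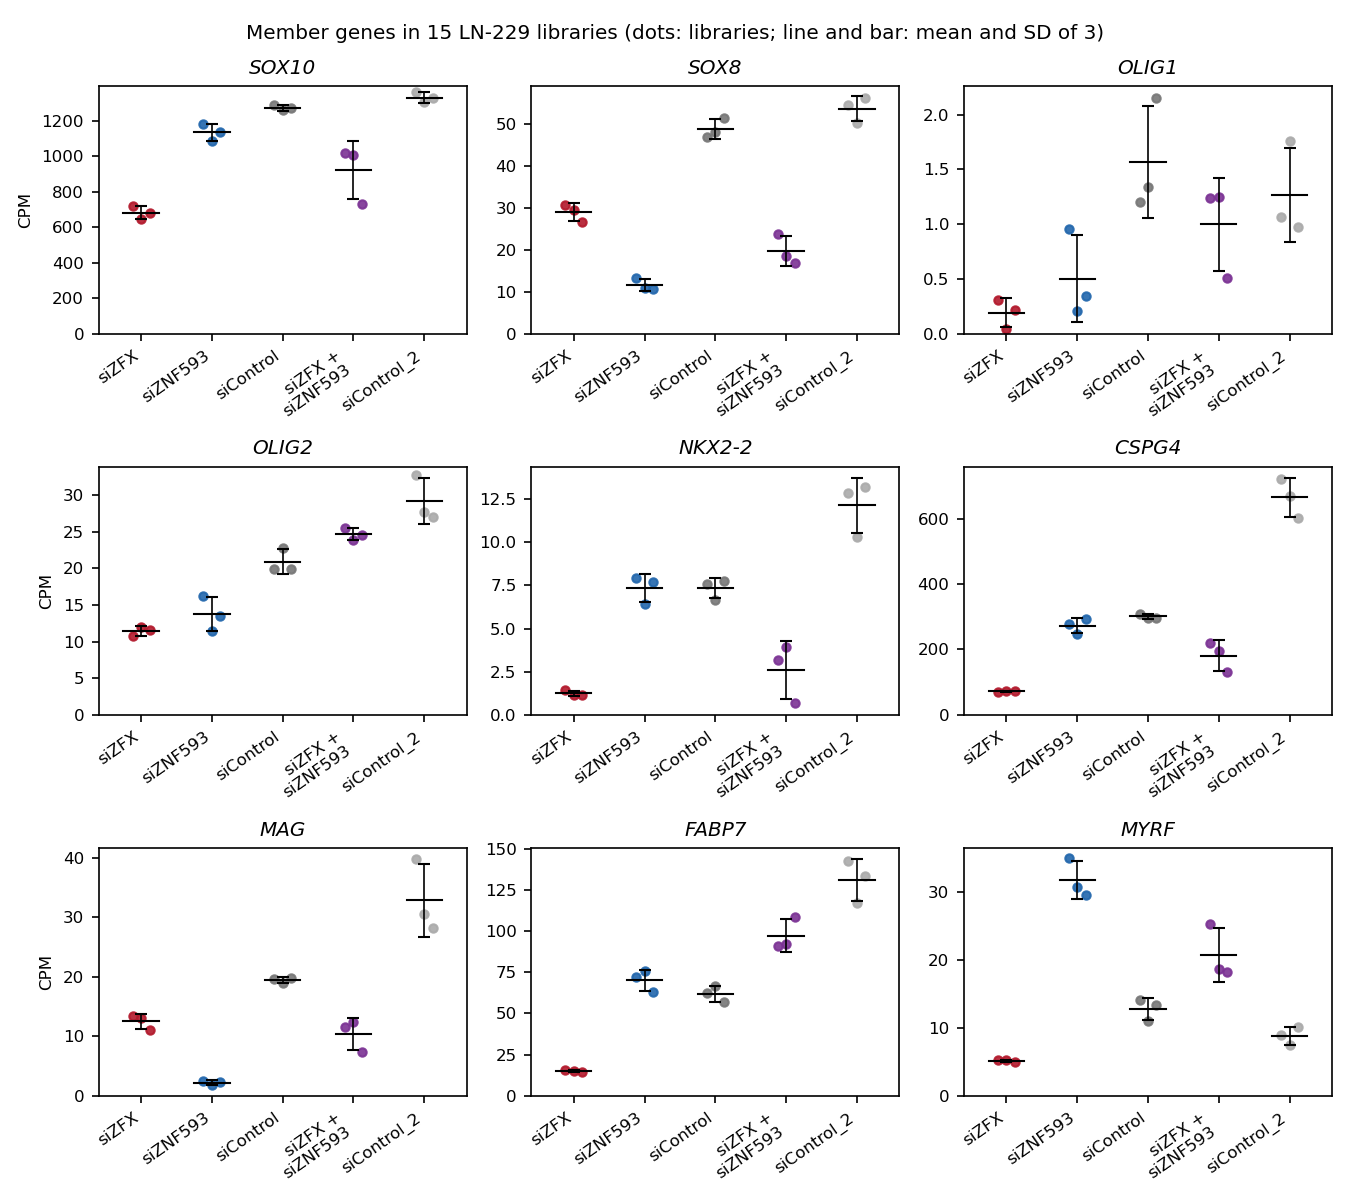
CPM (vertical axis, linear from 0) of each gene in the 15 LN-229 libraries by group, with 1 dot per library and the mean and SD of 3 in black. In every panel the siZFX dots lie below the siControl dots, while MYRF is highest in siZNF593 and CSPG4 and FABP7 are highest in siControl_2.

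Some Schwann cell and melanocyte markers fell too. The 10 markers summed to 769 to 793 CPM in siZFX and 1180 to 1270 CPM in siControl libraries. Of 9 tested 4 fell, none rose and the rest did not pass. The counts of this paragraph stand beside 17.1% of all genes lower and 13.8% higher. ERBB3, a receptor for neuregulin, averaged 276 ± 7 CPM in siZFX and 528 ± 22 in siControl (log2 -0.93, SE 0.06, adjusted p 1.21e-10). Astrocyte markers moved the other way, with 3 of 4 tested higher, GFAP at 7.01 ± 1.09 CPM in siZFX and 2.62 ± 0.63 in siControl (log2 1.43, adjusted p 4.89e-05). Glioblastoma line markers fell in 4 of 6 tested and rose in none, with sums of 4520 to 4700 CPM in siZFX and 5110 to 5310 CPM in siControl libraries. The part of these markers in the falls of the lineage genes was not tested.

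Lowering ZNF593 gave a mixed picture. In siZNF593 against siControl, 1 of the 9 genes rose (MYRF), 4 fell (SOX8, OLIG1, OLIG2 and MAG) and 4 did not pass, beside 12.2% of all genes higher and 14.6% lower (26.8% in all). MAG had 2.45, 1.76 and 2.36 CPM in siZNF593, against 19.6, 18.9 and 19.8 in siControl, an 8.86-fold drop (log2 -3.15, SE 0.20, adjusted p 4.85e-11). SOX8 had 13.3, 10.9 and 10.7 CPM in siZNF593, against 46.8, 48.1 and 51.4 in siControl (log2 -2.06, SE 0.12, adjusted p 9.52e-12). MYRF had 35.02, 30.8 and 29.6 CPM in siZNF593, against 14.1, 11.001 and 13.4 in siControl, a 2.49-fold rise (log2 1.31, SE 0.14, adjusted p 1.91e-07). For these 3 genes the groups lay far apart.

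OLIG2 fell less, with 16.2, 11.5 and 13.6 CPM in siZNF593, against 20.0, 22.9 and 20.0 in siControl (log2 -0.61, SE 0.12, adjusted p 0.000648). OLIG1 gave 19, 4 and 6 reads in siZNF593, against 33, 39 and 50 in siControl, and its call (log2 -1.61, SE 0.55, adjusted p 0.0334) was lost when any of 4 single libraries was left out, siControl 2 or 3 or siZNF593 2 or 3, with adjusted p up to 0.138. The 4 genes that did not pass had log2 changes of -0.16 for SOX10, 0.00 for NKX2-2, -0.14 for CSPG4 and 0.18 for FABP7. These values depended on the control libraries, and with all 6 of them as control CSPG4 was at -0.82, FABP7 at -0.46 and NKX2-2 at -0.40, none passing (adjusted p 0.0825, 0.272 and 0.422). SOX10 passed with no filter on low counts (log2 -0.19, adjusted p 0.0258) and with only these groups fitted (adjusted p 0.0272). Of 9 MAG receptor genes tested 1 rose and 1 fell. NGFR, a neurotrophin receptor that also takes part in MAG signalling, averaged 802 ± 63 CPM in siZNF593 and 322 ± 6 in siControl (log2 1.32, adjusted p 1.07e-06), and B4GALNT1, a ganglioside synthase, 91.7 ± 9.4 CPM in siZNF593 and 127 ± 3 in siControl (log2 -0.47, adjusted p 0.0134). Glioblastoma line markers fell in 4 of 6 tested and rose in none, beside 14.6% of all genes lower and 12.2% higher. Their sums were 3460 to 3770 CPM in siZNF593 and 5110 to 5310 CPM in siControl. Schwann cell and melanocyte markers summed to 1490 to 1530 CPM in siZNF593 and 1180 to 1270 CPM in siControl, with 3 of 9 tested higher and 3 lower, and the part of these markers in the changes was not tested.

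The siZFX and siZNF593 comparisons share their control libraries, so the siRNAs were set against each other directly. In siZFX against siZNF593, 2 of the 9 genes were higher, 5 lower and 2 did not pass, beside 19.8% of all genes higher and 20.7% lower (40.5% in all). MAG was 5.68-fold higher in siZFX (log2 2.51, SE 0.20, adjusted p 1.03e-09) and SOX8 2.48-fold higher (log2 1.31, SE 0.12, adjusted p 7.40e-09). MYRF was lower in siZFX, at 16.1% of its level in siZNF593 (log2 -2.63, SE 0.15, adjusted p 4.03e-12), as were NKX2-2 (log2 -2.57), FABP7 (-2.22), CSPG4 (-1.92) and SOX10 (-0.74). OLIG1 and OLIG2 overlapped between the siRNAs, with adjusted p 0.114 and 0.0951, although OLIG2 passed without siZNF593 replicate 2 (log2 -0.39, adjusted p 0.0206).

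In the double knockdown against siControl_2, 6 genes fell (SOX10, SOX8, NKX2-2, CSPG4, MAG and FABP7), MYRF rose, and OLIG1 and OLIG2 did not pass. Of all genes 20.6% were lower and 17.6% higher (38.2% in all). CSPG4 had 219.97, 194 and 129 CPM in the double knockdown, against 723, 669.9 and 603 in siControl_2 (log2 -1.88, SE 0.14, adjusted p 1.69e-07). NKX2-2 had 3.19, 3.90 and 0.67 CPM in the double knockdown, against 12.9, 10.3 and 13.2 in siControl_2 (log2 -2.23, SE 0.35, adjusted p 0.000111). Its double knockdown libraries gave 80, 103 and 17 unstranded reads, but 287, 248 and 183 with both stranded counts summed. With these summed counts and totals unscaled, NKX2-2 averaged 9.62 ± 2.11 CPM in the double knockdown and 34.9 ± 1.8 in siControl_2. SOX10 had 1021, 1011 and 732 CPM in the double knockdown, against 1362, 1305 and 1331 in siControl_2 (log2 -0.53, SE 0.09, adjusted p 5.48e-05). In all 3 genes replicate 3 was the lowest library of the double knockdown, and without it the log2 changes were -1.68, -1.77 and -0.39, all still passing.

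SOX8 had 23.7, 18.6 and 16.9 CPM in the double knockdown, against 54.6, 50.3 and 56.2 in siControl_2 (log2 -1.44, SE 0.11, adjusted p 1.33e-09). MAG had 11.5, 12.4 and 7.37 CPM in the double knockdown, against 39.7, 30.6 and 28.2 in siControl_2 (log2 -1.65, SE 0.16, adjusted p 4.63e-08). MYRF had 25.4, 18.7 and 18.2 CPM in the double knockdown, against 8.90, 7.43 and 10.1 in siControl_2 (log2 1.24, SE 0.15, adjusted p 5.77e-07). The groups lay apart in each of these genes. FABP7 had 91.0, 92.0 and 109 CPM in the double knockdown, against 143, 117 and 134 in siControl_2 (log2 -0.43, SE 0.09, adjusted p 0.000593). OLIG2 had 25.6, 23.9 and 24.5 CPM in the double knockdown, against 32.8, 27.8 and 27.05 in siControl_2, apart but not past the threshold (log2 -0.24, adjusted p 0.109). OLIG1 gave 31, 33 and 13 reads in the double knockdown, against 23, 35 and 19 in siControl_2 (log2 -0.34, SE 0.52, adjusted p 0.647). Of 6 glioblastoma line markers tested 5 fell and none rose, beside 20.6% of all genes lower and 17.6% higher. Their sums were 3550 to 3690 CPM in the double knockdown and 5010 to 5120 CPM in siControl_2. Schwann cell and melanocyte markers summed to 1580 to 1800 CPM in the double knockdown and 1570 to 1660 CPM in siControl_2, with 1 of 9 tested higher and 1 lower, and the part of these markers in the changes was not tested.

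**Figure D3:**
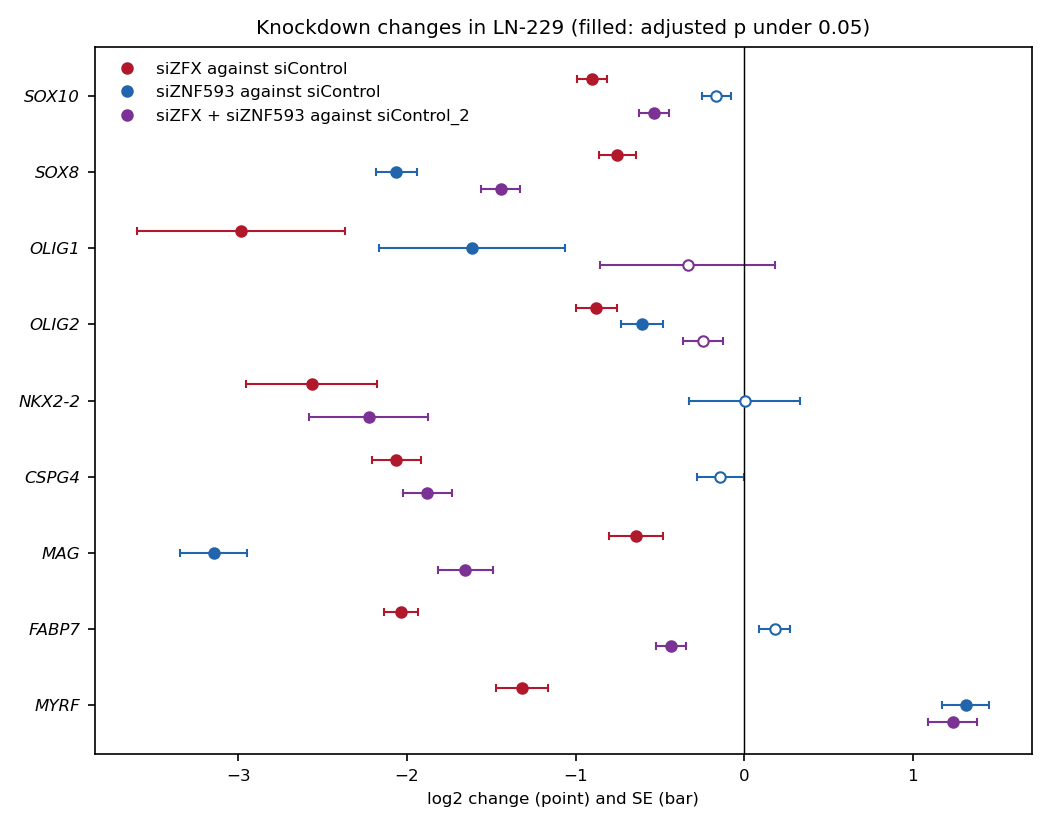
log2 change (horizontal axis, point with SE bar) of each gene for siZFX against siControl, siZNF593 against siControl and the double knockdown against siControl_2, filled where the adjusted p is under 0.05. All siZFX points are filled and below 0, MAG and SOX8 lie farthest left with siZNF593, and MYRF lies near -1.32, 1.31 and 1.24.

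The 2 control sets differed in 5 of the 9 genes. In siControl_2 against siControl, OLIG2, CSPG4, MAG and FABP7 were higher and MYRF was lower, beside 5.43% of all genes higher and 4.88% lower (10.3% in all). CSPG4 averaged 665 ± 60 CPM in siControl_2 and 301 ± 8 in siControl (log2 1.15, SE 0.14, adjusted p 8.07e-05), and FABP7 averaged 131 ± 13 CPM in siControl_2 and 62.0 ± 4.8 in siControl (log2 1.08, SE 0.09, adjusted p 2.65e-08). MAG averaged 32.8 ± 6.1 CPM in siControl_2 and 19.4 ± 0.5 in siControl (log2 0.76, SE 0.16, adjusted p 0.00215). The calls of OLIG2 (log2 0.48, adjusted p 0.00901) and MYRF (log2 -0.54, adjusted p 0.0194) were lost without siControl replicate 1 or 3 or siControl_2 replicate 1, and that of MYRF also without siControl_2 replicate 2. NKX2-2, at 12.1 ± 1.6 CPM in siControl_2 and 7.34 ± 0.59 in siControl, did not pass (adjusted p 0.187) but did with both stranded counts summed (log2 0.66, adjusted p 0.00104), with no filter and with only these groups fitted.

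These gaps bear on the double knockdown. Against siControl in place of siControl_2, FABP7 was higher in the double knockdown (log2 0.65, adjusted p 6.04e-06), and against all 6 control libraries it did not pass (log2 0.01, adjusted p 0.98). CSPG4 then had a log2 change of -0.73 against siControl and -1.42 against all 6, both passing. MAG had -0.90 and -1.32, MYRF 0.70 and 0.94, and OLIG2, which passed in neither, 0.24 and -0.02. SOX10 and SOX8, whose control sets were close, moved little, with -0.47 and -1.31 against siControl.

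The effect of the double knockdown was compared with that of siZFX alone. This does not isolate ZNF593 loss, since ZFX also fell less in the double knockdown (difference in log2 change 0.65, adjusted p 0.0112). The part of ZFX in the differences was not tested. Of the 9 genes 5 had a higher change in the double knockdown (SOX10, OLIG1, OLIG2, FABP7 and MYRF) and 2 a lower one (SOX8 and MAG), beside 8.76% of all genes higher and 8.97% lower (17.7% in all). MYRF differed by log2 2.55 (SE 0.21, adjusted p 9.80e-09) and FABP7 by 1.60 (SE 0.13, adjusted p 1.12e-08). SOX8 differed by -0.69 (SE 0.16, adjusted p 0.00316) and MAG by -1.01 (SE 0.23, adjusted p 0.00289). The difference for SOX10 (0.37, adjusted p 0.0441) was lost with only the compared groups fitted and without any of 8 single libraries, and that for OLIG1 (2.65, adjusted p 0.025) without any of 4, namely siControl 3, siZFX 2 and siControl_2 1 or 3. CSPG4 (0.18) and NKX2-2 (0.34) did not pass, but both did without replicate 3 of the double knockdown (0.39 and 0.80, adjusted p 0.00117 and 0.0379). NKX2-2 also passed with both stranded counts summed (0.59, adjusted p 0.0387). With siControl as the control of the double knockdown too, a setting chosen after seeing the data, MAG no longer passed (-0.26, adjusted p 0.251) and CSPG4 did (1.33, adjusted p 5.94e-06).

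Against the effect of siZNF593, the double knockdown had a higher change in 2 genes (SOX8 and MAG) and a lower one in 4 (SOX10, NKX2-2, CSPG4 and FABP7), beside 7.97% and 8.60% of all genes (16.6% in all). MAG differed by log2 1.49 (SE 0.26, adjusted p 0.000331) and NKX2-2 by -2.23 (SE 0.48, adjusted p 0.00474). CSPG4 differed by -1.74 (SE 0.20, adjusted p 4.58e-05). The difference for SOX10 (-0.37, adjusted p 0.0459) was lost with only the compared groups fitted and without any 1 library of siControl or siControl_2 or siZNF593 replicate 1 or 3. The difference for MYRF was -0.08 (SE 0.20, adjusted p 0.846). The difference for FABP7 (-0.62, SE 0.13, adjusted p 0.00203) turned round with siControl as the control of the double knockdown too (0.47, adjusted p 0.000511) and did not pass with all 6 controls (0.47, adjusted p 0.338), both settings chosen after seeing the data. With siControl, CSPG4 was at -0.59 (adjusted p 0.00586), OLIG2 passed at 0.84 (adjusted p 1.67e-05) and MYRF at -0.62 (adjusted p 0.0015), and with all 6 controls CSPG4 did not pass (adjusted p 0.28).

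Set against the sum of both single effects, the change in the double knockdown was higher in 6 of the 9 genes (SOX8, OLIG1, OLIG2, MAG, FABP7 and MYRF) and lower in none, beside 3.85% of all genes higher and 1.81% lower (5.65% in all). FABP7 was higher than the sum by log2 1.42 (SE 0.19, adjusted p 3.72e-05). The single effects share the siControl libraries, and the values of the other genes are given with the results set out for a closer look.

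Supplying ZFX to the knockout cells asked the reverse question. In wtZFX against pCMV6, 8 of the 9 genes could be tested, since FABP7 had 1 read in each wtZFX library and 0 in each pCMV6 library. SOX8, OLIG1, CSPG4 and MAG rose, OLIG2 fell, and SOX10, NKX2-2 and MYRF did not pass, beside 23.2% of all genes higher and 19.2% lower (42.3% in all). OLIG1 had 12.4, 12.01 and 12.4 CPM in wtZFX, against 2.31, 3.24 and 3.08 in pCMV6, a 4.28-fold rise (log2 2.10, SE 0.13, adjusted p 4.42e-12). CSPG4 had 29.8, 31.3 and 28.7 CPM in wtZFX, against 13.4, 12.7 and 12.1 in pCMV6, a 2.35-fold rise (log2 1.23, SE 0.08, adjusted p 9.43e-12). SOX8 had 24.5, 23.9 and 23.0 CPM in wtZFX, against 11.5, 10.7 and 9.34 in pCMV6, a 2.26-fold rise (log2 1.17, SE 0.09, adjusted p 1.33e-10). In these 3 genes the wtZFX libraries lay well above those of pCMV6.

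MAG was scarce in DKO cells, with 22, 35 and 44 reads in wtZFX, against 3, 5 and 5 in pCMV6 (log2 2.88, SE 0.40, adjusted p 2.26e-06). OLIG2 had 11.1, 11.7 and 10.1 CPM in wtZFX, against 13.2, 13.4 and 12.1 in pCMV6, and its small change (log2 -0.24, SE 0.10, adjusted p 0.0487) was lost under RLE factors, no filter, both stranded counts summed, DESeq2 and without any of 4 single libraries, namely wtZFX 1 or 3 and pCMV6 1 or 2. MYRF had 33.8, 40.1 and 35.5 CPM in wtZFX, against 30.02, 31.6 and 32.4 in pCMV6 (log2 0.22, SE 0.09, adjusted p 0.0582), and passed with no filter (adjusted p 0.0195), with only these groups fitted (0.00211) and without wtZFX replicate 1 (0.0432). NKX2-2 had 3.44, 3.69 and 3.90 CPM in wtZFX, against 3.35, 3.28 and 1.97 in pCMV6 (log2 0.35, SE 0.19, adjusted p 0.14), and passed with both stranded counts summed (log2 0.30, adjusted p 0.0439). SOX10 gave only 12, 14 and 14 reads in wtZFX, against 19, 19 and 15 in pCMV6 (log2 -0.43, SE 0.34, adjusted p 0.323). Epithelial markers rose in 4 of 4 tested, beside 23.2% of all genes higher and 19.2% lower. Their sums were 76.5 to 80.5 CPM in wtZFX and 46.0 to 48.1 CPM in pCMV6. Of 7 astrocyte markers 4 rose and 2 fell, with sums of 140 to 146 CPM in wtZFX and 157 to 165 CPM in pCMV6, and the part of these markers was not tested.

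**Figure D4:**
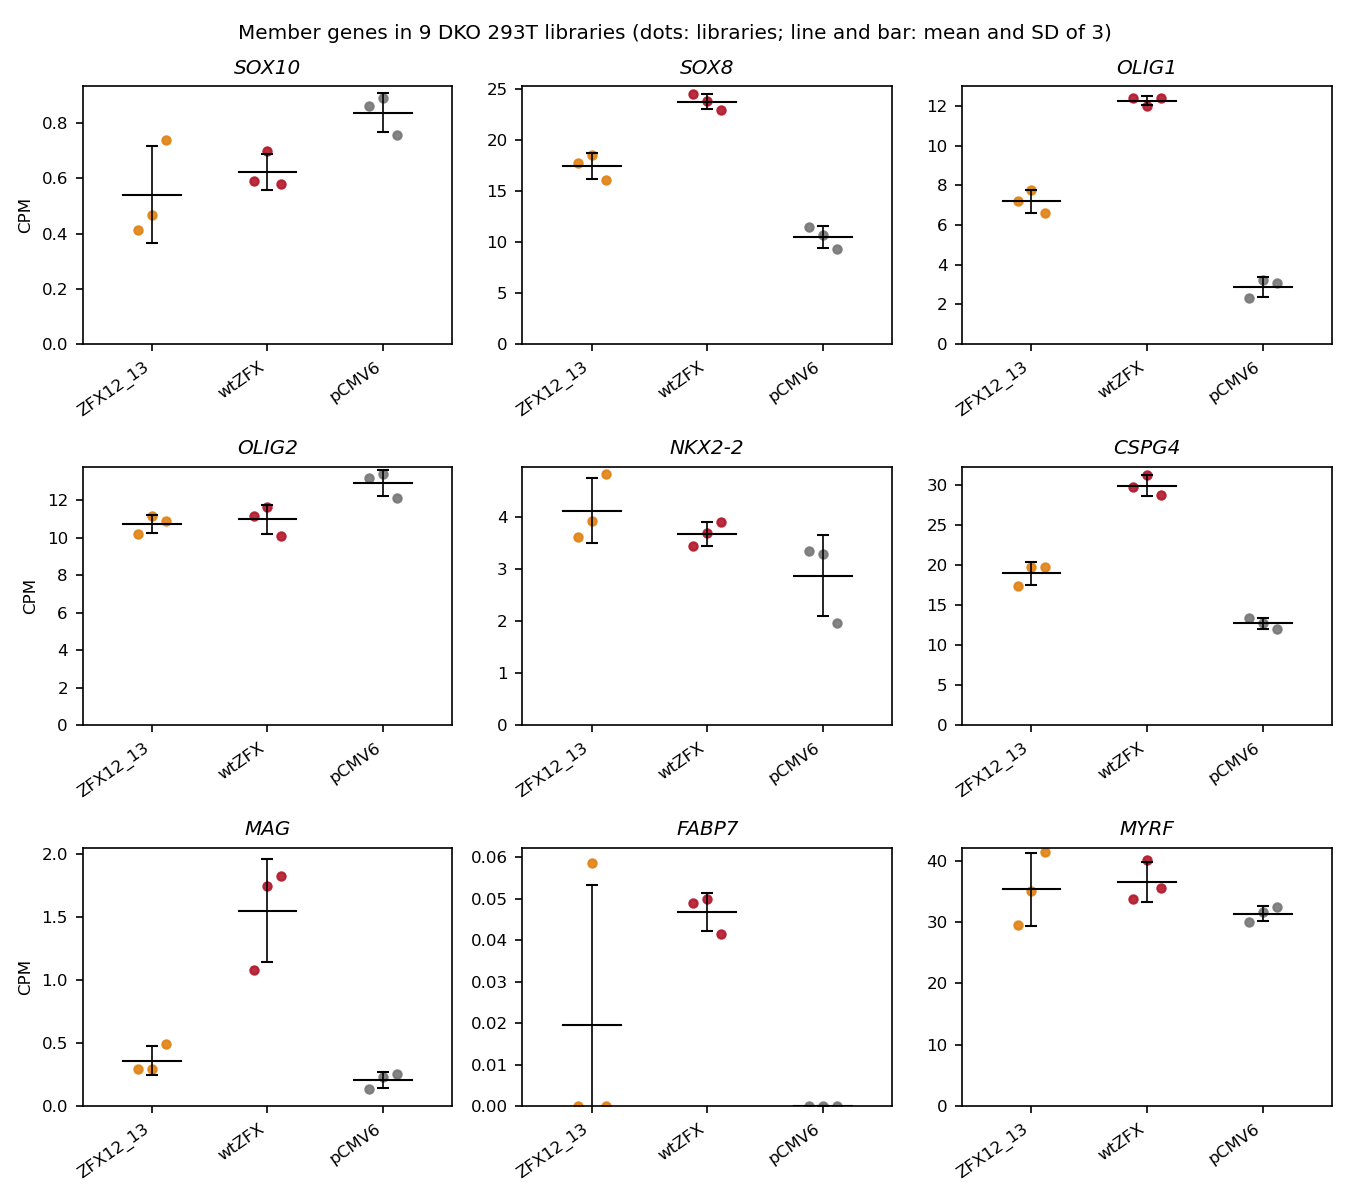
CPM (vertical axis, linear from 0) of each gene in the 9 DKO 293T libraries by group, with 1 dot per library and the mean and SD of 3 in black. SOX8, OLIG1, CSPG4 and MAG are highest in wtZFX, with ZFX12_13 between wtZFX and pCMV6, and the FABP7 dots stand for 0 or 1 read.

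ZFX12_13 also raised lineage genes. Against pCMV6, SOX8, OLIG1, NKX2-2 and CSPG4 rose, OLIG2 fell and 3 genes did not pass (SOX10, MAG and MYRF), beside 20.9% of all genes higher and 15.7% lower (36.6% in all). OLIG1 had 7.20, 7.79 and 6.60 CPM in ZFX12_13, against 2.31, 3.24 and 3.08 in pCMV6 (log2 1.33, SE 0.15, adjusted p 8.89e-08). SOX8 changed by log2 0.73 (SE 0.10, adjusted p 1.24e-06) and CSPG4 by 0.58 (SE 0.09, adjusted p 1.04e-05). The calls of NKX2-2 (log2 0.51, adjusted p 0.0406) and OLIG2 (log2 -0.26, adjusted p 0.0403) rested on single libraries and settings, and both were lost with no filter (adjusted p 0.0519 and 0.0553) and with DESeq2 (0.108 and 0.124). NKX2-2 was also lost with upper-quartile factors, with only these groups fitted, and without pCMV6 replicate 3 (adjusted p 0.241) or ZFX12_13 replicate 2 or 3, and OLIG2 without pCMV6 replicate 1 or 2 or any ZFX12_13 library. MYRF passed without ZFX12_13 replicate 1 (log2 0.28, adjusted p 0.0016). Epithelial markers rose in 4 of 4 tested here too, with sums of 93.4 to 103 CPM in ZFX12_13 and 46.0 to 48.1 CPM in pCMV6, and their part was not tested.

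Directly against wtZFX, 4 genes were lower in ZFX12_13 and none higher, beside 10.6% of all genes lower and 9.73% higher (20.4% in all). MAG gave 5, 5 and 8 reads in ZFX12_13, against 22, 35 and 44 in wtZFX (log2 -2.10, SE 0.38, adjusted p 0.000198). OLIG1 differed by log2 -0.77 (SE 0.12, adjusted p 3.31e-05), CSPG4 by -0.66 (SE 0.08, adjusted p 1.33e-06) and SOX8 by -0.44 (SE 0.09, adjusted p 0.000531). These are the 4 genes that rose with wtZFX, but both comparisons use the same wtZFX libraries, so the match is not independent. The difference in ZFX reads between the constructs did not pass (log2 0.28, SE 0.11, adjusted p 0.123).

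**Figure D5:**
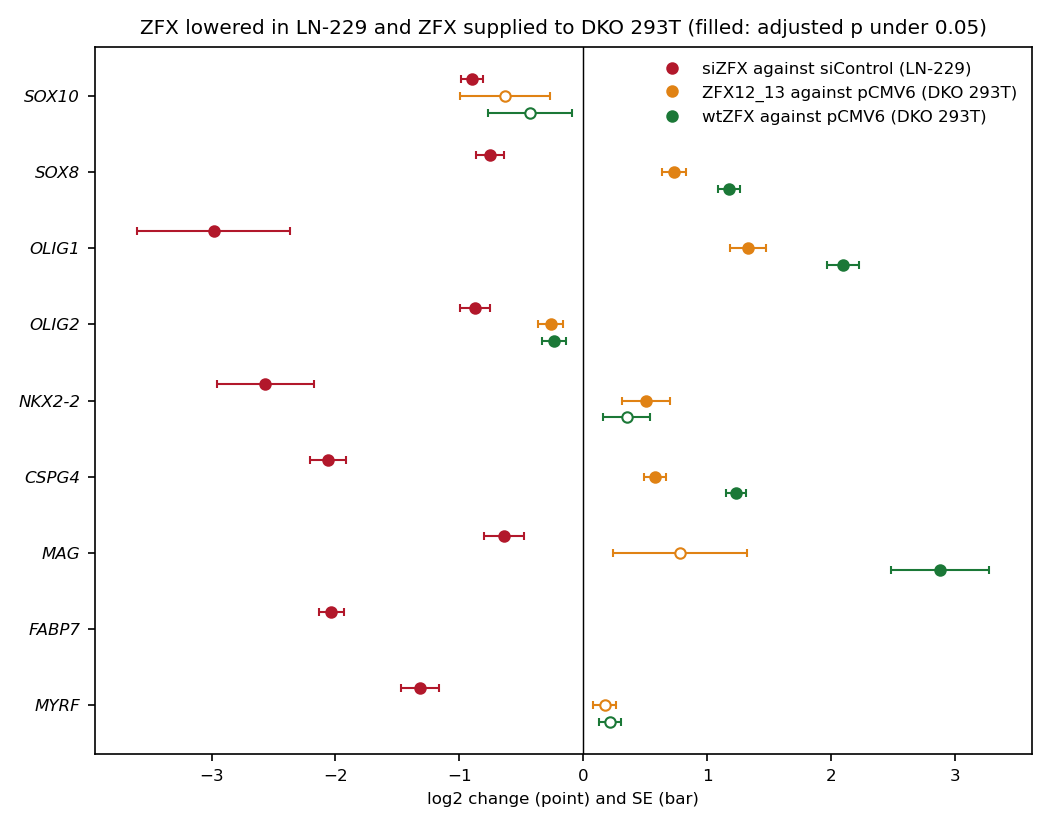
log2 change (horizontal axis, point with SE bar) of each gene for siZFX against siControl in LN-229 and for ZFX12_13 and wtZFX against pCMV6 in DKO 293T cells, filled where the adjusted p is under 0.05. SOX8, OLIG1, CSPG4 and MAG lie below 0 with siZFX and above 0 with both constructs, OLIG2 lies below 0 in all 3, and FABP7 was not tested in DKO cells.

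Other genes of the same families and pathways were read from lists written from general knowledge, with earlier results of these data known. Their counts stand beside 13.8% of all genes higher and 17.1% lower in siZFX, and 23.2% higher and 19.2% lower in wtZFX. Of 19 myelin and mature oligodendrocyte genes tested, 9 fell and 1 rose in siZFX, with a median log2 change of -0.60 against 0.02 over all genes. PLLP, a myelin tetraspan protein, averaged 0.98 ± 0.50 CPM in siZFX and 2.96 ± 0.27 in siControl (log2 -1.59, adjusted p 0.000117). GJB1, a gap junction protein of myelinating glia, averaged 3.44 ± 0.76 CPM in siZFX and 6.11 ± 0.38 in siControl (log2 -0.83, adjusted p 0.00114). CLDN11, a tight junction protein of myelin, was the one that rose, at 5.31 ± 0.13 CPM in siZFX and 1.46 ± 0.27 in siControl (log2 1.85, adjusted p 5.29e-05). In wtZFX 9 of 18 rose and 3 fell, with MBP, the myelin basic protein, at 4.22 ± 0.37 CPM, against 1.26 ± 0.21 in pCMV6 (log2 1.74, adjusted p 4.91e-08).

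Progenitor genes did not move one way, with 4 higher and 5 lower of 15 tested in siZFX. ZNF536, a zinc finger repressor, averaged 0.70 ± 0.21 CPM in siZFX and 2.42 ± 0.64 in siControl (log2 -1.78, adjusted p 4.13e-05), while BCAN, the proteoglycan brevican, averaged 3.18 ± 0.26 CPM in siZFX and 1.44 ± 0.41 in siControl (log2 1.13, adjusted p 0.00725). Of 9 further SOX genes tested in siZFX, SOX6 and SOX2 fell and SOX12 rose. SOX6, which holds progenitors back from differentiation in mice, averaged 28.7 ± 2.2 CPM in siZFX and 43.9 ± 1.5 in siControl (log2 -0.62, adjusted p 9.31e-06), and 92.3 ± 6.5 CPM in siZNF593 (log2 1.07, adjusted p 2.29e-09). Of 16 helix-loop-helix partners and inhibitors 5 rose and 2 fell in siZFX, beside the same 13.8% and 17.1% of all genes.

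Among relatives of FABP7, PMP2, the fatty acid-binding protein of peripheral myelin, averaged 1.60 ± 0.23 CPM in siZFX and 7.12 ± 0.44 in siControl (log2 -2.15, adjusted p 1.64e-07), 1 fall beside 1 rise among 5 tested. Of 9 tested genes for MAG receptors and the gangliosides MAG binds, 3 fell and 1 rose in siZFX, beside 17.1% and 13.8% of all genes, with B4GALNT1 at 73.8 ± 1.9 CPM in siZFX and 127 ± 3 in siControl (log2 -0.78, adjusted p 0.000202). In wtZFX 6 of 11 rose and none fell, beside 23.2% and 19.2% of all genes, led by the Nogo receptor relative RTN4RL1 at 10.9 ± 2.4 CPM, against 1.82 ± 0.01 in pCMV6 (log2 2.58, adjusted p 1.49e-11). Of 20 genes whose products bind or process the CSPG4 protein, 7 rose and 2 fell in siZFX, beside 13.8% and 17.1% of all genes, and 11 rose and 2 fell in wtZFX, beside 23.2% and 19.2%. FGFR3, a fibroblast growth factor receptor, averaged 5.67 ± 0.70 CPM in siZFX and 15.9 ± 2.6 in siControl (log2 -1.49, adjusted p 1.56e-06), and 124 ± 5 CPM in wtZFX and 54.9 ± 1.8 in pCMV6 (log2 1.18, adjusted p 2.16e-14). FGFR3 does not stand for these 20 genes, whose median log2 change in siZFX was 0.16, against 0.02 over all genes.

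Across the 15 LN-229 libraries the 9 genes did not vary as one. These correlations of log2(CPM + 1) describe libraries that share 5 groups and carry no test. NKX2-2 and SOX10 ran closest (Pearson r 0.964), followed by MAG and SOX8 (0.947) and CSPG4 and SOX10 (0.941), while MYRF ran against MAG (-0.683) and SOX8 (-0.661). Over the same libraries and 10621 other protein-coding genes, the gene most like SOX10 was CD276 (0.984), most like CSPG4 was CHST11, a chondroitin sulfotransferase (0.990), and most like FABP7 was KANK1 (0.993). CSRP1 was most like MAG (0.986), FBXO44 most like NKX2-2 (0.980), RNF125 most like SOX8 (0.978), RAB9B most like MYRF (0.972) and YPEL2 most like OLIG2 (0.967). OLIG1 was too low for this reading.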

How the data were processed

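RNA-seq counts of 24 libraries were analysed. Per the labels' protocols, total RNA was extracted with trizol and libraries were made with a NEBNext Ultra II RNA kit. The authors deposited whole-number counts per gene in 3 columns, unstranded and 1 for each strand, in the layout of STAR. The submitters' processing notes name STAR, HTSeq, DESeq2 and hg38 without versions. Symbols, coordinates and exon lengths came from GENCODE 29, and promoter windows from RefSeq. The unstranded counts were analysed, and both stranded columns summed were an alternative. This sum counts reads in exons shared by genes on opposite strands for each of those genes.

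Each cell line was fitted with edgeR 4.0.16 in R 4.3.3 by the quasi-likelihood test, with 1 coefficient per group, TMM factors and filterByExpr. Adjusted p are Benjamini-Hochberg values over all tested genes of a comparison, called under 0.05. Estimated biological variation came to 11.2% for the LN-229 fit and 5.26% for the DKO fit. CPM use TMM-scaled totals, and TPM use counts per kilobase of merged exons. The series speaks of biological replicates and not of separate cultures, so p-values measure the spread between these libraries, which may be technical. The fit was tested on simulated data.

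The 9 genes, the gene lists and the markers were chosen with earlier results of these data known. Beyond the 9, named genes are the targets, overlapping genes and copies, up to 3 called genes of largest change per list at a mean of at least 1 CPM, markers, and for each of the 9 with at least 5 CPM the genes of highest correlation with it at a mean of at least 5 CPM. NGFR, named beside siZNF593, comes from the list of MAG receptors. Other settings tried were no filter, upper-quartile or RLE factors, DESeq2 1.42.0, only the compared groups, a replicate block, summed stranded counts, other control sets (for the differences of the double knockdown, chosen after seeing the data) and leaving out each library. Tables and figures used Python 3.11.15 with numpy 2.4.6, pandas 2.3.3 and matplotlib 3.10.9.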

Additional observations from a re-analysis of the deposited data

Results flagged for a closer look

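In 6 of the 9 genes the change in the double knockdown was higher than the sum of the siZFX and siZNF593 changes, and in the other 3 the difference did not pass, beside 3.85% of all genes higher and 1.81% lower (5.65% in all) by edgeR's quasi-likelihood test. The difference from the sum was log2 1.37 for SOX8 (SE 0.22, adjusted p 0.000421), 2.13 for MAG (SE 0.34, adjusted p 0.000355) and 1.42 for FABP7 (SE 0.19, adjusted p 3.72e-05). It was 1.24 for OLIG2 (SE 0.24, adjusted p 0.00203), 1.24 for MYRF (SE 0.29, adjusted p 0.0106) and 4.26 for OLIG1 (SE 1.08, adjusted p 0.0194), whose single changes rest on few reads. Every library of siControl enters this difference through both single knockdowns, and siControl_2 enters once. Without siControl replicate 1 MYRF no longer passed (1.12, adjusted p 0.0609), and without siControl replicate 3 OLIG1 no longer passed (3.69, adjusted p 0.102). Without replicate 3 of the double knockdown SOX10 and CSPG4 passed as well (0.69 and 0.53, adjusted p 1.70e-06 and 0.00201), and SOX10 also passed with no filter (adjusted p 0.00103), both stranded counts summed (0.0386) and DESeq2 (0.0406). ZFX itself kept more of its level in the double knockdown than with siZFX alone, and its part in these differences was not tested. The control sets themselves differed in OLIG2, CSPG4, MAG, FABP7 and MYRF. With siControl as the control of the double knockdown too, an alternative chosen after seeing the data, the differences were 0.70 for MYRF (adjusted p 0.0229), 1.72 for OLIG2, 2.89 for MAG and 2.50 for FABP7, and CSPG4 and SOX10 passed (1.47 and 0.60, adjusted p 0.000155 and 0.00188). With all 6 controls for every knockdown MYRF no longer passed (0.46, adjusted p 0.24), while CSPG4 and SOX10 passed (2.15 and 0.63, adjusted p 0.012 and 0.00177).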

How the results depend on the processing

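Over all alternatives, 1406 values of the 9 genes kept their direction and their side of the threshold, 62 lost their call, 31 gained one and 25 changed sign, 21 of them with neither value called. The 4 others were FABP7, in the double knockdown at log2 0.65 against siControl and 0.012 against all 6 controls, and in its difference from siZNF593 at 0.4676 and 0.4677 with these controls. Uncalled sign changes were NKX2-2 in siZNF593, at -0.0026 with RLE factors, -0.026 with no filter, -0.099 with summed strands, -0.0046 with DESeq2, -0.40 with all 6 controls and -0.079 to 0.073 without 1 library, FABP7 in siZNF593 at -0.46 with all 6 controls, and OLIG2 in the double knockdown at 0.24 against siControl. Without 1 library, NKX2-2 ran from -0.071 to 0.80 in the difference from siZFX and from -0.068 to 0.80 in that from the sum, MYRF from -0.217 to 0.053 in the difference from siZNF593, and in ZFX12_13 against wtZFX OLIG2 ran from -0.085 to 0.013 and MYRF from -0.176 to 0.067. With siControl for the double knockdown too, chosen after seeing the data, 6109 genes were called in the difference from siZFX, 5265 in that from siZNF593 and 2663 in that from the sum, against 3137, 2929 and 1000. With all 6 controls the first and last of these counts were 5292 and 2850. The cause was not tested. With siControl_2 against siControl, 3700 genes were called when only these groups were fitted, against 1824, and the cause was not tested. In ZFX12_13 against pCMV6, 3 of the genes passed with no filter and 3 with DESeq2, against 5. With 1 library left out, calls in siControl_2 against siControl ran from 3 to 5 of the 9 and from 1204 to 1367 genes, and those in ZFX12_13 against pCMV6 from 3 to 5 of the 9. The difference from the sum called 551 to 2047 genes, against 1000, with 606, 551 and 657 without siControl replicate 1, 2 or 3 and 2047 without replicate 3 of the double knockdown.

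Replicate numbers gave no clear pairing of the samples, and same-numbered libraries deviated together at correlations of -0.151 to 0.124. Counting noise pulls such correlations towards 0, so they cannot exclude pairing. With the replicate number as a block, 5483 genes and 9 of the 9 were called for siZFX, and for wtZFX OLIG2 lost its call (adjusted p 0.0532) and MYRF gained one (adjusted p 0.0308). Every library correlated best with its own number only in wtZFX against pCMV6. Low counts limit OLIG1 in LN-229 and SOX10, MAG and FABP7 in DKO cells, the shared exons of NKX2-2 limit its level, and 3 libraries per group limit small differences.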
